A study of Mus musculus with 18 samples.

Results

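The nuclear genes for the subunits of the mitochondrial respiratory chain and of ATP synthase were followed in testis of mice with a knock-in allele of Taf7l and of wild-type mice. They were taken by symbol from the deposited table of mRNA genes: every symbol beginning with Nduf and a subunit letter and number, Cox4 to Cox8 with a subunit letter a to c, Uqcr or Atp5, together with Sdha to Sdhd, Cyc1, Cycs and Cyct. This gave 88 of the 22298 entries, among them the testis isoforms Cox6b2, Cox7b2, Cox8c and Cyct. By name 38 belonged to complex I, 4 to complex II, 9 to complex III, 17 to complex IV, 18 to ATP synthase (complex V) and 2 were the cytochromes c. Ndufa4, counted with complex I by its name, is known as a subunit of complex IV. The pattern left out Cox4i1, Cox4i2 and Ndufab1, which are given with the neighbouring pathways.

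The series compared 2 groups in whole testis. TKI libraries came from C57BL/6 mice with the Taf7l knock-in allele, and TWT libraries from C57BL/6 mice with wild-type Taf7l, with 3 libraries of each. Taf7l is X-linked and encodes a relative, made in germ cells, of the TFIID subunit Taf7, TFIID being a general transcription factor. Both groups were adult per the series' design, and total RNA from frozen organs was made into stranded libraries. The age beyond adult and the edited codon are not named in the labels used here, nor whether the libraries of a group came from separate animals. The p-values therefore rest on the spread among these libraries, which may be partly technical. The other 12 samples, labelled PS and RS, were not analysed here.

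Complexes I to IV pass electrons from NADH and succinate to oxygen and pump protons across the inner mitochondrial membrane, except complex II, which pumps none. ATP synthase uses the resulting gradient to make ATP. Most of the subunits are encoded in the nucleus and a few in the mitochondrial genome. Germ cells switch several nuclear subunits to testis isoforms as they mature, so the somatic form and the testis form of one subunit are read side by side in whole testis. Nuclear respiratory genes are known to share promoter elements for the factors NRF1, YY1 and the ETS factor GABPA, and CRE elements are known from genes of spermatids.

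Promoters are shown for the 3 genes that changed, for Cox7b2, the testis gene with the lowest fold change, and for the testis and somatic genes of 2 isoform pairs. Each is the 150 bases before the RefSeq start (GRCm38.p6, the same assembly as the mm10 build of the tables), read along the gene's strand. Gene positions in the text are RefSeq's on the same assembly. Capitals mark NRF1 (GCGCANGCG), ETS (CCGGAAG), YY1 (AAGATGGCG) and CRE (TGACGTCA), searched on both strands. CCAAT, the element of NF-Y, was counted too and left in lower case.
Ndufb7: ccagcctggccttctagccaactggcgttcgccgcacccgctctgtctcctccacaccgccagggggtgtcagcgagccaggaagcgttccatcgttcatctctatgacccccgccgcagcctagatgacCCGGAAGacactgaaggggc
Ndufb8: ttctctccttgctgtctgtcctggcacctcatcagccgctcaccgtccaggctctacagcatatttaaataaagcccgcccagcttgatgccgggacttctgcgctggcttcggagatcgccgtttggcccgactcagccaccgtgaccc
Atp5j: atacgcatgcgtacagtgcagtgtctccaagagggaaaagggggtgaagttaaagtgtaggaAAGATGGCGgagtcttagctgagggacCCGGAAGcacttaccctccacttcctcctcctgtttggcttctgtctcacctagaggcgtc
Cox7b2: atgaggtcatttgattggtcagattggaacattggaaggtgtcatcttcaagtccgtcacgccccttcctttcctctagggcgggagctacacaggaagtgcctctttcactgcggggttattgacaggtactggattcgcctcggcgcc
Cycs: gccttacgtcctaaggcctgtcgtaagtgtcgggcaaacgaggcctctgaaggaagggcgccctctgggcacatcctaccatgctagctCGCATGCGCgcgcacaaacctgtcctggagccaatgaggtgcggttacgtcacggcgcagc
Cyct: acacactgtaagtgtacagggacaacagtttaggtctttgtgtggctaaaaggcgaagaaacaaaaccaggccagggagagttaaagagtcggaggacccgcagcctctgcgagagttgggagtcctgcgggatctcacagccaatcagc
Cox6b1: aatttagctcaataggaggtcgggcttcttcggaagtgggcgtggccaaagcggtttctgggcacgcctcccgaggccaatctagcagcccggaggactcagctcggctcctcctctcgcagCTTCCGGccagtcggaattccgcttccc
Cox6b2: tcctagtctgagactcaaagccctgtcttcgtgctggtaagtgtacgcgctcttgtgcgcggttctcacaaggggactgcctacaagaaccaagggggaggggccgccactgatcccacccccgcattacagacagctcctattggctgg
The Ndufb7 stretch, on the plus strand at chr8:83566608-83566757, held 1 ETS element. Ndufb8, on the minus strand at chr19:44555443-44555592, held none of the 5 elements. Atp5j, on the minus strand at chr16:84834977-84835126, held 1 YY1 and 1 ETS element; a second RefSeq start of Atp5j, not shown, held none. Cox7b2, on the minus strand at chr5:71548206-71548355, held CCAAT 3 times and none of the other elements. Somatic Cycs (chr6:50566570-50566719, minus strand) carried an NRF1 element and CCAAT, and its testis partner Cyct (chr2:76360454-76360603, minus strand) only CCAAT. Somatic Cox6b1 (chr7:30626115-30626264, minus strand) carried an ETS element and CCAAT, and its testis partner Cox6b2 (chr7:4753095-4753244, minus strand) only CCAAT. The somatic Cox7b, not shown, is unlike these. Over the full window, 250 bases before to 50 after the start, its promoter held CCAAT and none of the other 4 elements. Over that same window, beyond the stretch shown, Cycs also held 1 CRE, and Cyct held 0. A match describes letters, not a bound site, and a missing one says only that these letters are not in this window.

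Of 87 distinct genes 71 had a promoter in the RefSeq table, 76 promoters in all. Over the full window, 250 bases before to 50 after the start, 21 of the 71 genes (29.6%) held the NRF1 element, against 13.2% of the 12481 tested genes with a promoter. The YY1 element stood in 7 (9.86%, against 2.95%), the ETS element in 17 (23.9%, against 17.1%), the CRE in 5 (7.04%, against 3.20%) and CCAAT in 32 (45.1%, against 42.7%). Over all 32851 promoters of the table the shares were 6.25% for NRF1, 1.403% for YY1, 8.86% for ETS, 1.79% for the CRE and 37.4% for CCAAT. The fitted log2 fold change, TKI over TWT, had a median of 0.19 over the 20 tested genes with the NRF1 element and 0.07 over the 48 without. For the ETS element these medians were 0.10 over 17 genes and 0.07 over 51, and for YY1 0.14 over 7 and 0.07 over 61. For the CRE the genes with the element had the lower median, 0.03 over 5 against 0.08 over 63, and likewise for CCAAT, 0.07 over 31 against 0.11 over 37. These medians are a description with no test.

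The libraries held 17431309 to 21446420 counts of mRNA genes. Taf7l itself had 472, 525 and 581 counts in TKI libraries, against 507, 551 and 531 counts in TWT libraries (log2 fold change -0.11, edgeR, adjusted p = 0.632); the codon that was edited cannot be read from counts per gene, and the labels are not checked by this value. Over all 15787 genes tested, 155 passed an adjusted p under 0.05, 139 higher and 16 lower in TKI. Markers of germ cells, Sertoli, Leydig and peritubular cells and macrophages were all present, and none of them was at 0 in every library. The 5 markers of elongating spermatids summed to 8606, 6832 and 8360 CPM in TKI libraries, against 8096, 7311 and 6507 CPM in TWT libraries. Of the 5, 4 lay above 0 on the log2 scale. EdgeR called Prm2 and Smcp higher, where it called 0.88% of all genes higher. With the trend of counts on transcript length removed, neither passed (edgeR, adjusted p = 0.125 and 0.127). The most abundant of the 5, Prm1, was below 0, with 3113 CPM in TKI and 3850 CPM in TWT libraries on average. Its log2 fold change was -0.31 ± 0.12 (edgeR, unadjusted p = 0.0247, adjusted p = 0.303). All 7 peritubular myoid markers had a log2 fold change above 0, with none called by edgeR, 2 by DESeq2 and 5 at an unadjusted p under 0.05, and summed to 235, 270 and 262 CPM in TKI libraries, against 197, 227 and 207 CPM in TWT libraries. The summed markers of Leydig cells (6 genes, 1232 to 1247 CPM in TKI and 1044 to 1199 CPM in TWT libraries) did not overlap either. Nor did those of spermatocytes (5 genes, 1948 to 2031 CPM in TKI and 1753 to 1878 CPM in TWT libraries). EdgeR called none of either list, DESeq2 called 1 Leydig marker, and 2 of each list had an unadjusted p under 0.05. Of all genes DESeq2 called 3.41% higher, and 7.83% were higher at an unadjusted p under 0.05. Of the Leydig markers 5 of 6 had a log2 fold change above 0, with Hsd3b1 at -0.02. Of the spermatocyte markers 3 of 5 did, with Sycp3 at -0.02 and Spo11 at -0.16. Hspa2 alone averaged 1721 CPM in TKI and 1565 CPM in TWT libraries, of spermatocyte sums averaging 1988 and 1817 CPM. The summed markers of Sertoli cells, macrophages, spermatogonia and round spermatids overlapped between genotypes, and edgeR called none of them. Above 0 were 4 of 6 Sertoli markers (median 0.13) and 3 of 5 macrophage markers (median 0.02). Likewise above 0 were 1 of 5 spermatogonia markers (median -0.03) and 3 of 5 round spermatid markers (median 0.04). The part of these cell types in the results was not tested, and in bulk tissue a change in the number of cells of a type cannot be told apart from a change in RNA per cell.

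Of the 88 entries 85 were above 0 and 82 had enough counts to be tested. Of these, 3 passed the test, all higher in TKI: Ndufb7 and Ndufb8 of complex I and Atp5j of ATP synthase. None passed as lower. Over all tested genes 0.88% were called higher and 0.101% lower. Most members lay slightly above 0: the fitted log2 fold change was positive for 60 of 82 and negative for 22, that is, positive for 73.2% against 50.6% of all tested genes. The median was 0.07, against 0.00 over all genes, and the range ran from -0.31 (Cox7b2) to 1.19 (Atp5k). The members' deviation from their mean over the 6 libraries was also taken per library, on the log2 scale. Its median was 0.042, 0.0076 and 0.054 in TKI libraries 1 to 3, against 0.014, -0.061 and -0.058 in TWT libraries 1 to 3. The genotypes overlapped there, with TWT 1 above TKI 2. At an unadjusted p under 0.05 there were 22 members higher and 5 lower, where 7.83% and 5.09% of all genes reached it. TKI and TWT libraries were fully apart for 24 members higher in TKI (29.3%, against 10.1% of all genes) and for 8 members lower (9.76%, against 8.41%). The authors' deposited table lists 7 members higher and 1 lower at an adjusted p under 0.05, where 1.62% and 0.381% of its genes are so listed. They are the 3 named above with Atp5j2, Cox5b, Ndufa2 and Uqcrq, and Cox7b2 as the lower one. DESeq2 on the same counts also gave 7 higher and 1 lower, where 3.41% and 0.817% of all genes were called, and limma on log2(FPKM + 1) gave 5 and 1, where 1.34% and 0.329% were. With the replicate number as a block 3 members were higher and 1 lower, where 0.988% and 0.139% of all genes were.

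**Figure D1:**
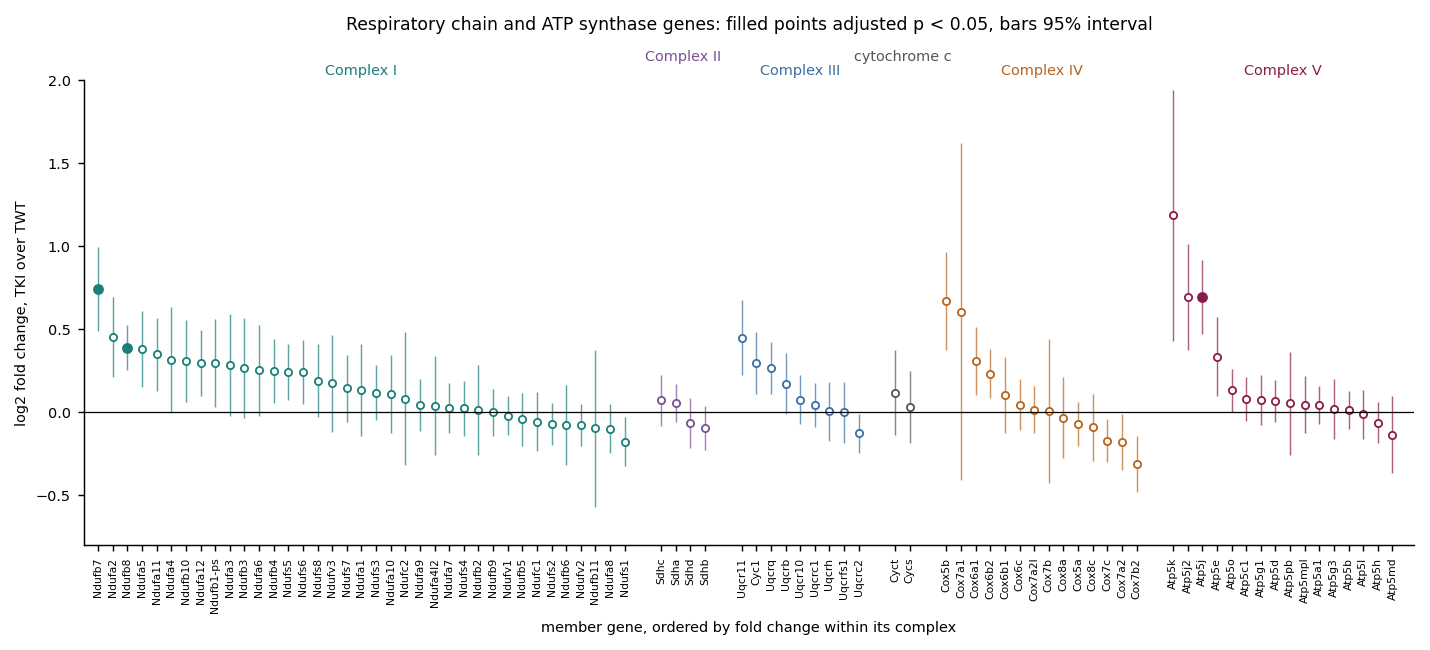
The 82 tested genes are set along the horizontal axis by complex, with the fitted log2 fold change of TKI over TWT on the vertical axis. Bars are 95% intervals and filled points passed edgeR's test; the 3 filled points are Ndufb7, Ndufb8 and Atp5j, and the lowest point of complex IV is Cox7b2.

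In complex I, which takes electrons from NADH, 27 of 37 tested members lay above 0 and 10 below, with a median of 0.13. EdgeR called 2 higher, where it called 0.88% of all genes higher. Ndufb7, an accessory subunit of the membrane arm (ENSMUSG00000033938, chr8:83566758-83571623), stood at 27.9, 26.2 and 28.2 CPM in TKI libraries 1 to 3, against 16.3, 18.7 and 14.04 CPM in TWT libraries 1 to 3. CPM are counts relative to the library total after TMM scaling. Every TKI library lay above every TWT library, and the log2 fold change was 0.74 ± 0.11 (SE; 95% interval 0.49 to 1.00; edgeR, adjusted p = 0.0206). Ndufb8, also an accessory subunit of the membrane arm (ENSMUSG00000025204, chr19:44548571-44555442), had 93.9, 95.5 and 101 CPM in TKI libraries, against 76.3, 72.5 and 72.6 CPM in TWT libraries. Again the groups did not overlap, and the log2 fold change was 0.39 ± 0.06 (95% interval 0.25 to 0.52; adjusted p = 0.0206). Each call was lost in 4 of the 6 fits that left out 1 library. Ndufb7 stayed past the threshold without TKI 2 or TWT 2, and Ndufb8 without TKI 1 or TKI 2. With the trend of counts on transcript length removed, the log2 fold changes were 0.58 (adjusted p = 0.0581) for Ndufb7 and 0.24 (0.149) for Ndufb8.

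The accessory and the core subunits of complex I had different medians, which were not tested. Accessory here means every Nduf member outside the core, so Ndufa4 (0.32) and Ndufa4l2 (0.04) were counted by their names. Of the 30 tested accessory members 24 lay above 0 (median 0.21), and of the 7 core subunits, which carry the electron path, 3 did (median -0.02). Accessory members are the shorter ones, with a median implied transcript length of 830 bp against 1317 bp for the core, and with the length trend removed the medians were 0.05 and -0.04. The lowest fold change was that of a core subunit, Ndufs1 of the electron input module (chr1:63143592-63176822), with 132, 114 and 120 CPM in TKI libraries, against 140, 137 and 136 CPM in TWT libraries. Its libraries did not overlap, but the difference of -0.18 ± 0.07 did not pass (edgeR, adjusted p = 0.294). The most abundant by FPKM, a level relative to library size and transcript length, was the accessory Ndufa7 at 138 FPKM in TKI and 136 FPKM in TWT libraries. It had 89.6, 93.9 and 98.6 CPM in TKI libraries, against 98.9, 88.4 and 89.9 CPM in TWT libraries. Here the groups overlapped, with a log2 fold change of 0.03 that turned to -0.17 with the length trend removed.

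Among the remaining members of complex I TKI libraries were fully above TWT libraries for 9 more: Ndufa2, Ndufa4, Ndufa5, Ndufa11, Ndufa12, Ndufb3, Ndufb4, Ndufs5 and Ndufs6. Their log2 fold changes ran from 0.24 (Ndufs6) to 0.45 (Ndufa2) and none passed (edgeR, adjusted p from 0.093 to 0.46). With Ndufb7 and Ndufb8 that made 11 of the 37 tested members of the complex (29.7%), against 10.1% of all genes. Ndufa8 and Ndufc1 were lower in each TKI library than in any TWT library, at -0.10 and -0.06. With Ndufs1 that made 3 of 37 (8.11%), near the 8.41% of all genes. Ndufv1, the subunit that binds NADH, was nearly level, with 134 ± 3.22 CPM in TKI and 136 ± 1.53 CPM in TWT libraries (SD, n = 3 each). Ndufa13 had too few counts to test, 0, 10 and 0 in TKI libraries and 6, 0 and 6 in TWT libraries.

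Complex II, succinate dehydrogenase, had no gene past the test, nor at an unadjusted p under 0.05 or by DESeq2 or limma, with 2 of its 4 genes above 0, 2 below and a median of -0.01. The membrane anchor Sdhc had the highest fold change and the iron-sulfur subunit Sdhb the lowest, and Sdhb was also the most abundant by FPKM. Sdhc (chr1:171129157-171150640) stood at 59.9, 63.7 and 65.1 CPM in TKI libraries, against 61.0, 56.6 and 62.0 CPM in TWT libraries (log2 0.07 ± 0.07; edgeR, adjusted p = 0.74). Sdhb (chr4:140961271-140979198) stood at 105, 101 and 101 CPM in TKI libraries, against 110, 104 and 114 CPM in TWT libraries (-0.09 ± 0.06; adjusted p = 0.563). The groups overlapped for both. Sdha, the flavoprotein, was higher in each TKI library (238 ± 3.90 CPM) than in any TWT library (229 ± 4.46 CPM). The nearest libraries were almost level, TKI 3 at 233.7 CPM and TWT 2 at 233.4 CPM. By FPKM the groups overlapped, with 62.5 in TKI 3 and 63.85 in TWT 2. The log2 fold change of 0.05 did not pass (edgeR, adjusted p = 0.731).

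Complex III passes electrons to cytochrome c. Of its 9 genes 8 lay above 0, with a median of 0.07, and edgeR called none. At an unadjusted p under 0.05 there were 3 higher and 1 lower, where 7.83% and 5.09% of all genes reached it. DESeq2 called Uqcrq higher and limma on FPKM called Uqcr11 higher, where 3.41% and 1.34% of all genes were. Uqcr11, a small subunit (chr10:80402997-80406821), had the highest value, with 16.2, 16.8 and 16.7 CPM in TKI libraries, against 12.1, 11.6 and 12.7 CPM in TWT libraries (log2 0.45 ± 0.10; edgeR, adjusted p = 0.082). The TKI libraries were all above the TWT libraries, as they were for Uqcrq, Uqcrb and Cyc1. That made 4 of the 9 genes (44.4%), against 10.1% of all genes. The lowest was Uqcrc2, a core protein of the matrix side (chr7:120635189-120659523), with 139.8, 139.6 and 134 CPM in TKI libraries, against 149.9, 149 and 153 CPM in TWT libraries (-0.13 ± 0.05; adjusted p = 0.347). Its partner Uqcrc1, the most abundant gene of the complex by FPKM (chr9:108936648-108949641), had 490 CPM, 465 CPM and 496 CPM in TKI libraries, against 495, 450 and 463 CPM in TWT libraries, and the groups overlapped (0.04 ± 0.06; adjusted p = 0.829). So Uqcrc2 stood apart downward while Uqcrc1 did not stand apart, and the difference between the genes was not tested. Cyc1, cytochrome c1, is described with its noncoding transcript.

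Cytochrome c, the carrier between complexes III and IV, has a somatic gene, Cycs, and a testis gene, Cyct. Cyct (chr2:76353942-76360453) had 17.99, 18.7 and 17.7 CPM in TKI libraries, against 18.8, 16.7 and 14.6 CPM in TWT libraries (log2 0.12 ± 0.11; edgeR, adjusted p = 0.738). Cycs (chr6:50562563-50566569) had 18.7, 21.9 and 21.04 CPM in TKI libraries, against 20.5, 20.1 and 19.7 CPM in TWT libraries (0.03 ± 0.10; adjusted p = 0.934). Neither gene separated the genotypes, and neither was called by DESeq2 or limma or reached an unadjusted p under 0.05. Per length the testis gene was the higher of the pair, at 20.6 FPKM over all libraries against 5.04 FPKM for Cycs, whose implied transcript is 4033 bp long against 847 bp for Cyct.

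In complex IV, cytochrome c oxidase, 8 of 14 tested members lay above 0 and 6 below, with a median of 0.01 and none called by edgeR. At an unadjusted p under 0.05 there were 3 higher and 3 lower, where 7.83% and 5.09% of all genes reached it. DESeq2 called Cox5b higher and Cox7b2 lower, where 3.41% and 0.817% of all genes were. By limma on FPKM Cox7b2 was called lower, where 0.329% of all genes were. Cox5b, the zinc-binding subunit (chr1:36691487-36693388), had the highest value, with 18.3, 21.8 and 23.9 CPM in TKI libraries, against 14.6, 13.99 and 11.7 CPM in TWT libraries. The groups did not overlap and the log2 fold change of 0.67 ± 0.13 missed the threshold narrowly (edgeR, adjusted p = 0.0512); it passed without TKI 1 (adjusted p = 0.0414). Cox7b2, the testis isoform of subunit 7b (chr5:71442823-71548205), had the lowest value of all 82 members, with 99.0, 84.9 and 91.35 CPM in TKI libraries, against 118.1, 105 and 118.3 CPM in TWT libraries. Every TKI library lay below every TWT library, by -0.31 ± 0.08 on the log2 scale (adjusted p = 0.101). With the length trend removed the value was -0.50 and passed (adjusted p = 0.0323), as did Cox7c at -0.36 (adjusted p = 0.0424), with 0.0823% of all genes called lower in that fit. Cox7a2, the widely expressed subunit 7a and the most abundant gene of the complex by FPKM (chr9:79755241-79771422), was at 266, 225 and 247 CPM in TKI libraries, against 302, 264 and 271 CPM in TWT libraries, and the groups overlapped in TKI 1 and TWT 2 (-0.18 ± 0.08; adjusted p = 0.359).

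The muscle isoforms of complex IV were near the limit of detection. Cox7a1 had 0.825, 1.55 and 1.51 CPM in TKI libraries, against 0.492, 1.48 and 0.568 CPM in TWT libraries, which overlapped (0.61 ± 0.45; edgeR, adjusted p = 0.647). Cox6a2 had 1, 0 and 0 counts in TKI libraries and 2, 0 and 3 counts in TWT libraries, and Cox8b had 0 counts in every library, as had the pseudogene entry Cox5b-ps. Cox6a1, the form of subunit 6a found outside muscle (chr5:115345652-115348958), had 49.1, 55.3 and 59.9 CPM in TKI libraries, against 44.7, 47.1 and 41.0 CPM in TWT libraries. Its groups did not overlap, and 0.31 ± 0.09 did not pass (adjusted p = 0.181).

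**Figure D2:**
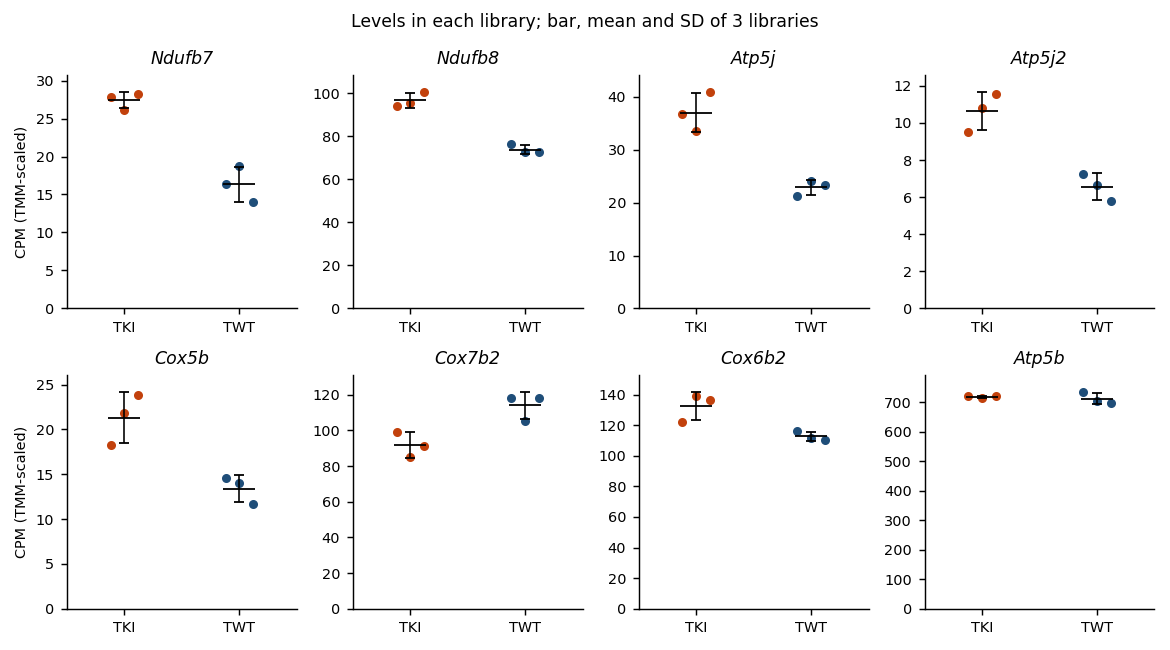
TMM-scaled CPM on the vertical axis, from 0, for 8 genes in the 3 TKI and the 3 TWT libraries, with a bar for the mean and SD. The genotypes do not overlap in Ndufb7, Ndufb8, Atp5j, Atp5j2, Cox5b, Cox6b2 (higher in TKI) or Cox7b2 (lower in TKI), and overlap in Atp5b; Ndufb7, Ndufb8 and Atp5j passed the test.

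By FPKM the testis isoforms outweighed their somatic partners in each of the 4 pairs. Whether the weight differed between genotypes could not be decided by the exact test of 3 against 3 libraries. Its smallest possible p is 0.1, so no pair could reach the threshold used for the genes. Cox6b2, the testis form of subunit 6b (chr7:4751792-4753094), had 122, 139 and 137 CPM in TKI libraries, against 116, 112 and 110.3 CPM in TWT libraries. Its groups did not overlap, with a log2 fold change of 0.23 ± 0.06 (edgeR, adjusted p = 0.153). Somatic Cox6b1 (chr7:30616971-30626114) had 21.8, 20.4 and 20.5 CPM in TKI libraries, against 17.4, 21.3 and 19.8 CPM in TWT libraries, which overlapped (0.10 ± 0.10). Of the FPKM of the pair Cox6b2 took 88.0% ± 1.11 in TKI and 86.3% ± 1.05 in TWT libraries (SD, n = 3 each; exact permutation test, two-sided, p = 0.2, adjusted over the 4 pairs 0.533).

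Cox7b2 took 95.5% ± 1.04 of its pair with Cox7b in TKI and 96.9% ± 1.00 in TWT libraries (n = 3 each; exact p = 0.3, adjusted 0.533). The somatic Cox7b, on the X chromosome, was low, with 7.43, 6.41 and 6.17 CPM in TKI libraries, against 5.79, 8.605 and 5.456 CPM in TWT libraries. Cox8c, the testis form of subunit 8, took 76.1% ± 2.61 of its pair with Cox8a in TKI and 76.6% ± 3.56 in TWT libraries (n = 3 each; exact p = 0.9, adjusted 0.9). Its level was 70.7, 67.3 and 74.2 CPM in TKI libraries, against 86.0, 70.2 and 69.9 CPM in TWT libraries, and that of Cox8a was 23.7, 29.6 and 26.8 CPM in TKI libraries, against 24.8, 27.4 and 29.8 CPM in TWT libraries. For both genes the groups overlapped. Cyct took 80.8% ± 1.13 of cytochrome c FPKM in TKI and 79.7% ± 1.75 in TWT libraries (n = 3 each; exact p = 0.4, adjusted 0.533). Of the counts of the pair, which are not per length, Cyct took less than Cycs, at 46.9% ± 1.81 in TKI and 45.2% ± 2.70 in TWT libraries. The smallest p that 3 against 3 libraries allow is 0.1, and the libraries overlapped in all 4 shares.

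ATP synthase had 13 of 16 tested members above 0 and 3 below, with a median of 0.06. EdgeR called 1 higher, where it called 0.88% of all genes higher. Atp5j, coupling factor 6 of the peripheral stalk (ENSMUSG00000022890, chr16:84827871-84835857), had the lowest adjusted p of the 82 genes. It stood at 36.7, 33.5 and 40.9 CPM in TKI libraries, against 21.3, 24.1 and 23.3 CPM in TWT libraries. The TKI libraries were all higher, with a log2 fold change of 0.69 ± 0.10 (95% interval 0.47 to 0.92; edgeR, adjusted p = 0.0144). It was the member called higher when the length trend was removed (0.57; adjusted p = 0.0437), where 0.272% of all genes were. Among the fits that left out 1 library it passed without TKI 1 or TKI 2 and not in the other 4 (adjusted p up to 0.095).

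Atp5j2 and Atp5k, small subunits of the membrane part, stood high without passing. Atp5j2, subunit f, had 9.52, 10.8 and 11.6 CPM in TKI libraries, against 7.26, 6.65 and 5.80 CPM in TWT libraries (0.69 ± 0.14; edgeR, adjusted p = 0.0596). Atp5k, subunit e (chr5:108433246-108434399), had the highest fold change of all members on few counts, 29, 42 and 44 in TKI libraries, against 15, 23 and 9 in TWT libraries (1.19 ± 0.34; adjusted p = 0.165). In both, each TKI library was above each TWT library. The lowest was Atp5md, also a small membrane subunit (chr19:47083471-47090647), with 28.2, 25.5 and 23.4 CPM in TKI libraries, against 31.0, 26.5 and 27.1 CPM in TWT libraries, which overlapped (-0.13 ± 0.10; adjusted p = 0.655).

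In the F1 head, where ATP is made, 4 of the 5 subunits lay within 0.08 of 0 on the log2 scale. All 5 were above 0, with a median of 0.07. Of the 11 tested members outside the head 8 were above 0, with a median of 0.05. With the length trend removed these medians were 0.02 for the head and -0.06 outside it, and the difference was not tested. Atp5b, the catalytic beta subunit (ENSMUSG00000025393, chr10:128083307-128090388), was the most abundant of all members at 398 FPKM in TKI and 391 FPKM in TWT libraries. It had 721, 714 and 723 CPM in TKI libraries, against 735, 705 and 698 CPM in TWT libraries, with overlap and a log2 fold change of 0.01 ± 0.05 (95% interval -0.10 to 0.13; edgeR, adjusted p = 0.951). Alpha (Atp5a1), gamma (Atp5c1) and delta (Atp5d) lay between 0.04 and 0.08, and epsilon (Atp5e) at 0.33 ± 0.11, with no overlap of its libraries (adjusted p = 0.215). The c-subunit of the rotor ring is encoded by 3 genes. Atp5g1 had 66.8, 69.0 and 74.0 CPM in TKI libraries, against 68.8, 64.3 and 66.6 CPM in TWT libraries, and Atp5g3 had 31.5, 32.4 and 32.8 CPM in TKI libraries, against 33.7, 29.7 and 32.1 CPM in TWT libraries. Both overlapped, at 0.07 and 0.02. Atp5g2 was barely counted, with 21, 10 and 24 counts in TKI libraries and 2, 9 and 9 in TWT libraries, too few to be tested. A second entry named Atp5o was at 0 in every library.

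All members together took 0.627%, 0.640% and 0.637% of mRNA counts in TKI libraries, against 0.623%, 0.623% and 0.617% in TWT libraries. The groups were apart (n = 3 each; p = 0.1 by an exact two-sided permutation test, the smallest possible). Complex I took 0.175% in TKI and 0.168% in TWT libraries and complex III took 0.0997% in TKI and 0.0955% in TWT libraries, both with no overlap. Complex IV went the other way, with 0.107% ± 0.00184 in TKI and 0.111% ± 0.00180 in TWT libraries (SD, n = 3 each), also with no overlap (exact p = 0.1). Complexes II and V overlapped (exact p = 1 and 0.2). Of the summed FPKM, which weighs short genes more, the members took 1.31%, 1.36% and 1.35% in TKI libraries, against 1.33%, 1.32% and 1.31% in TWT libraries, and there the groups overlapped (exact p = 0.4).

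**Figure D3:**
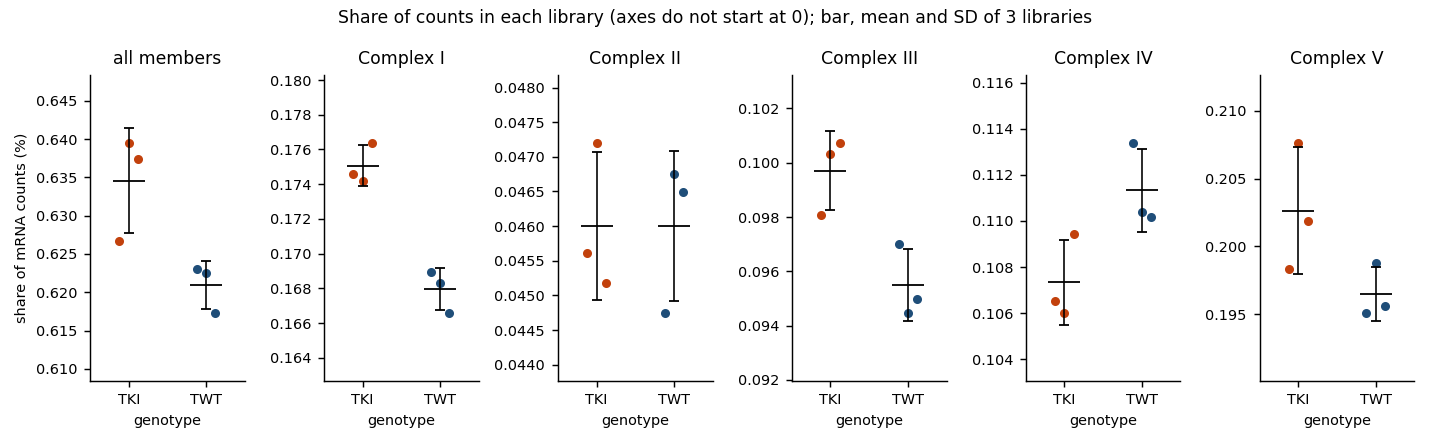
Share of mRNA counts (percent, axes not from 0) taken by all members and by each complex in the 3 TKI and the 3 TWT libraries, with a bar for the mean and SD. The TKI libraries lie above the TWT libraries for all members, complex I and complex III, below them for complex IV, and overlap with them for complexes II and V.

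Respiratory chain subunits are small, and fold changes went with transcript length in these libraries. The median implied length, taken from counts and FPKM of the same gene, was 881 bp over the 82 members and 3049 bp over all tested genes. Of the members, 59 lay in the shortest 10% of all genes, under 1271 bp. The median log2 fold change was 0.17 for members under their own median length and 0.04 for those over it. Across the 82 members Spearman's rho between length and log2 fold change was -0.27, and across all tested genes -0.15; the genes share the same 6 libraries and are not independent. With the trend of counts on length removed in each library, 39 members lay above 0 and 43 below, with a median of -0.02, the same as over all genes. Then 1 member was called higher (Atp5j) and 2 lower (Cox7b2 and Cox7c). Fold changes also went with level: rho between mean FPKM and log2 fold change was -0.41 across the 82 members and 0.00 across all genes.

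**Figure D4:**
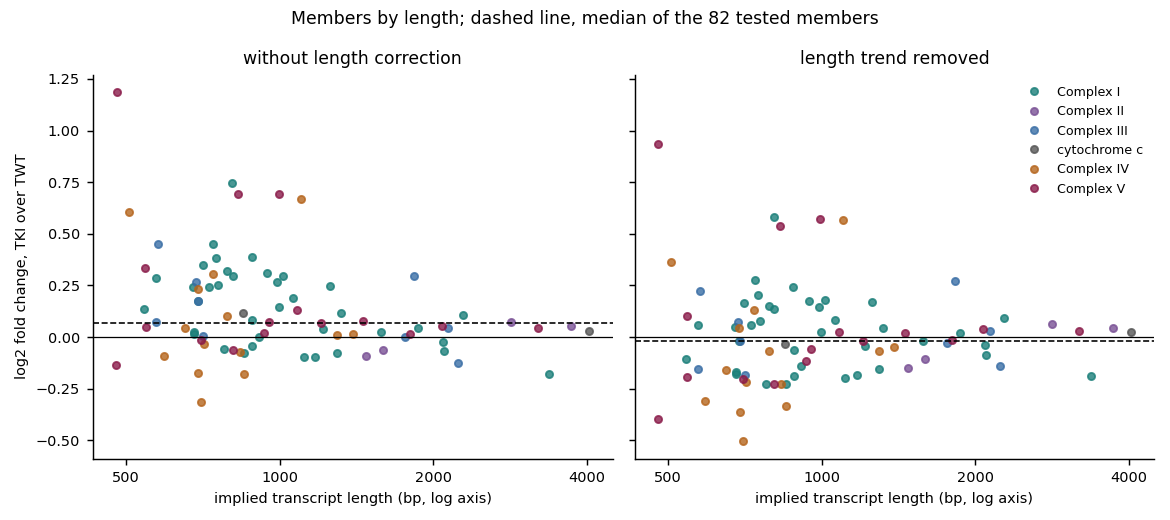
Implied transcript length in bp on a log axis against the log2 fold change of TKI over TWT for the 82 tested genes, coloured by complex, without correction on the left and with the length trend removed on the right. The dashed median moves to -0.02 on the right, against 0.07 on the left.

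Noncoding transcripts that carry a member's symbol were listed in a separate table, 61 transcripts of 34 genes. Of these 51 were above 0 and 17 could be tested, and 1 was called. The noncoding Atp5b transcript ENSMUST00000124993 fell, with 260, 256 and 250 counts in TKI libraries, against 560, 539 and 555 counts in TWT libraries. Its libraries were tight within each genotype, and the log2 fold change was -1.19 ± 0.10 (95% interval -1.42 to -0.96; edgeR, adjusted p = 0.00377). Over all 9301 transcripts tested 0.043% were called lower and 0.0538% higher. The call was kept in each of the 6 fits without 1 library. It was lost with the replicate number as a block (adjusted p = 0.113). The coding gene Atp5b had a log2 fold change of 0.01, as given with the F1 head. ENSMUST00000126751 and ENSMUST00000127439, listed under Atp5b too, were higher in each TKI library than in any TWT library, at 0.48 and 0.56, and did not pass (adjusted p = 0.498 and 0.445).

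A Cyc1 transcript, ENSMUST00000229292, was nearly missing from the TKI libraries, with 0, 0 and 1 counts, against 15, 32 and 39 counts in TWT libraries. The ratio of TKI to TWT, corrected for depth, was 0.0109 with a 95% exact counting interval of 0.000274 to 0.0626, which covers counting error only; the test across libraries missed the threshold (edgeR, adjusted p = 0.0696). The coding gene Cyc1 (chr15:76343513-76346260) went the opposite way, with 40.5, 48.5 and 43.4 CPM in TKI libraries, against 36.5, 35.3 and 35.9 CPM in TWT libraries. By CPM its libraries did not overlap and the log2 fold change of 0.30 ± 0.08 did not pass (edgeR, adjusted p = 0.161). By FPKM they overlapped, at 20.8, 26.3 and 22.7 FPKM in TKI and 20.1, 22.4 and 22.0 FPKM in TWT libraries. There the log2 fold change was 0.11 (limma on log2(FPKM + 1), adjusted p = 0.689). The noncoding Ndufa5 transcript ENSMUST00000141274 had 141, 129 and 208 counts in TKI libraries, against 79, 78 and 87 counts in TWT libraries (0.87 ± 0.18; adjusted p = 0.137), in the direction of coding Ndufa5 (0.38 ± 0.10; adjusted p = 0.139). In all, 8 of the 17 tested transcripts had an unadjusted p under 0.05, 4 higher and 4 lower, where 4.81% of all transcripts tested were higher and 4.16% lower at that p. DESeq2 called 3 of the member transcripts, where it called 1.18% of all. These were the Atp5b transcript named first and those of Cyc1 (DESeq2, adjusted p = 0.000789) and Ndufa5 (DESeq2, adjusted p = 0.0459). With no filter on low counts 4 were called, these 3 among them, where 0.565% of all were. With the replicate number as a block 0 were called, where 0.0215% of all were. A noncoding Sdha transcript, ENSMUST00000160667, was not tested, and had 24, 48 and 4 counts in TKI libraries, against 0, 0 and 0 in TWT libraries. The libraries were fully apart for 4 that were higher in TKI and 4 that were lower, where 8.33% and 7.62% of all transcripts were. How reads shared by a coding gene and its noncoding transcripts were counted is not given, so single values of either kind are uncertain.

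**Figure D5:**
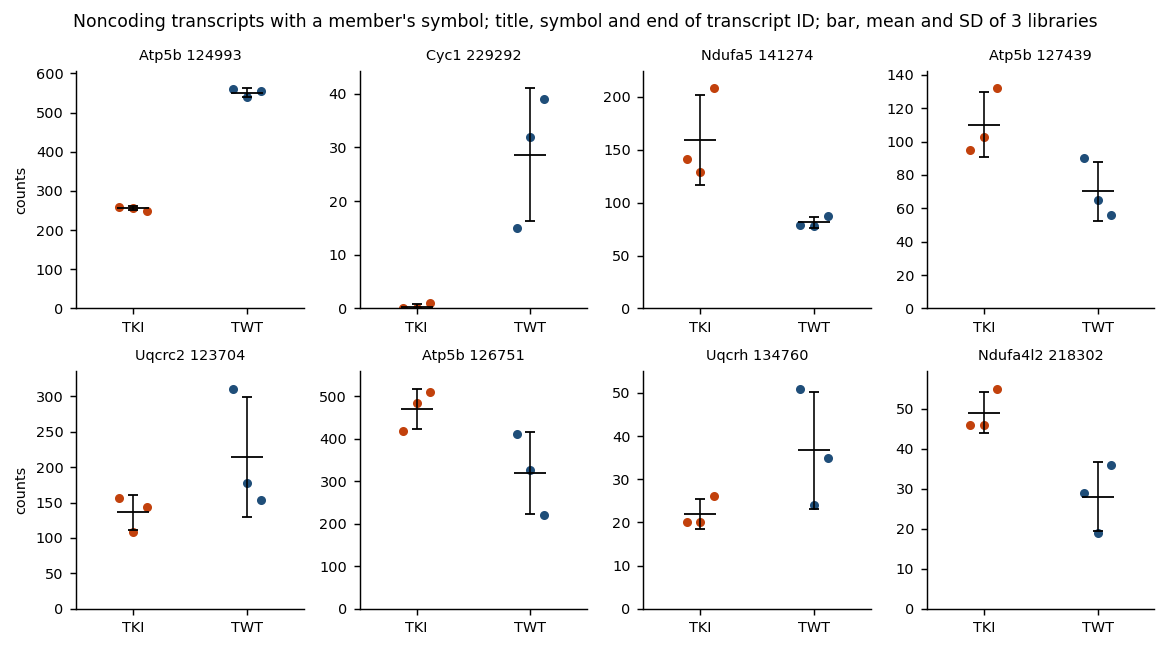
Counts from 0 on the vertical axis for the 8 noncoding transcripts of member genes with an unadjusted p under 0.05, in the 3 TKI and the 3 TWT libraries, with a bar for the mean and SD. The first panel is the Atp5b transcript that passed the test, at 250 to 260 counts in TKI and 539 to 560 counts in TWT libraries; the second is the Cyc1 transcript, with at most 1 count in a TKI library.

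Of the subunits and close partners that the symbol pattern does not match, 6 were tested. EdgeR called 1 higher, where 0.88% of all genes were. The called gene was Atpif1, the inhibitor protein of ATP synthase. It had 36.8, 33.6 and 39.4 CPM in TKI libraries, against 26.2, 24.6 and 21.03 CPM in TWT libraries. The TKI libraries were all higher (log2 0.61 ± 0.10; edgeR, adjusted p = 0.0296), and with the length trend removed the value was 0.42 and did not pass (adjusted p = 0.0992). Cox4i1, the largest nuclear subunit of complex IV, was at 0.18 ± 0.06 (adjusted p = 0.226) and Ndufab1, the mitochondrial acyl carrier protein held in complex I, at 0.27 ± 0.10 (adjusted p = 0.264). None of 46 tested assembly factors was called by edgeR, DESeq2 or limma. At an unadjusted p under 0.05 there were 3 higher and 0 lower, where 7.83% and 5.09% of all genes reached it. Of the 46, 23 lay above 0, with a median of -0.00, from Atpaf1 at -0.25 to Ndufaf6 at 0.56. None of 14 regulators of respiratory genes and of mitochondrial gene expression was called by any of these tools (0 higher and 1 lower at an unadjusted p under 0.05), with 4 above 0 and a median of -0.08; Nrf1 stood at -0.01 ± 0.09, Gabpa at -0.04 ± 0.09 and Tfam, which packages mitochondrial DNA, at -0.09 ± 0.11. The subunits encoded in the mitochondrial genome had a median of 0.41 over 13 genes, against the median of 0.07 over the nuclear members. Of the 13 mitochondrial genes 6 were called higher by edgeR and 9 by DESeq2, where 0.88% and 3.41% of all genes were. With the length trend removed 2 of the 13 were called, mt-Atp6 and mt-Cytb, where 0.272% of all genes were called higher. The median of the 13 was then 0.34.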

How the data were processed

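Whole-testis RNA of 3 TKI and 3 TWT libraries was analysed. Per the file headers, the deposited tables hold whole-number counts and FPKM per library for mRNA genes and noncoding transcripts, and counts per circular RNA. The authors' deposited mRNA table also gives a log2 fold change and an adjusted p-value (FDR) per gene. Per the submitters' processing notes the genome build was mm10. Aligner, counter, annotation, strand setting and FPKM denominator: not given in the sources used here.

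Counts were tested with edgeR 4.0.16 (limma 3.58.1, R 4.3.3): TMM, filterByExpr (minimum count 10, minimum total 15), quasi-likelihood F test, two-sided, Benjamini-Hochberg over all features tested, called at adjusted p under 0.05. All p-values named adjusted come from that test unless another is named. Standard errors were derived from the F statistic. The implied transcript length of a gene is the median over libraries of its count divided by its FPKM and the table total, so it is relative. The length trend was removed as a loess offset (span 0.3) per library. Shares were compared by exact permutation. DESeq2 1.42.0 and limma on FPKM were alternatives. The fits were tested on simulated data.

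Depth was 17431309 to 21446420 counts in the mRNA table and 1384224 to 1647421 in the noncoding table. The biological coefficient of variation was 11.1% for genes and 26.4% for noncoding transcripts. Within a genotype no library repeated another, and TKI libraries were not checked against TWT libraries in this way. Members, lists and tests were chosen with earlier results of these data known. Named with values in every library were members that were called, the isoform pairs, and in each complex the highest and lowest fold change and the highest FPKM; other members are named by complex after their values were seen.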

Additional observations from a re-analysis of the deposited data

How the results depend on the processing

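With 3 libraries per genotype the counts of calls moved with single libraries and with the test. Without 1 library the count over all genes ran from 11 (without TKI 3) to 125 (without TKI 2), with 108 without TKI 1, 74 without TWT 1, 32 without TWT 2 and 20 without TWT 3, against 155. The members called higher then ran from 0 (without TKI 3, TWT 1 or TWT 3) to 3, with 1 without TWT 2. The DESeq2 test gave 460 genes, with 7 members higher and 1 lower, which was Cox7b2. A minimum of 100 counts gave 255 genes with 5 members higher. limma on log2(FPKM + 1) gave 263 genes and with a pseudocount of 0.1 it gave 251, each with 5 members higher and 1 lower, Cox7b2. With the length trend removed 56 genes were called, with 1 member higher and 2 lower and a member median of -0.018. Shares by direction over all genes were not worked out for the fits without 1 library, with 100 counts or with the pseudocount of 0.1. The member counts of those fits therefore stand without a rate.

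With the replicate number as a block 178 genes were called, with 3 members higher and 1 lower, Cox7b2 (adjusted p = 0.0493), and no noncoding transcript of a member. With the block and the length trend removed together 1 member was higher and 3 lower (Cox7b2, Cox7c and Cox7a2), the member median was -0.016 and 106 genes were called. Shares by direction over all genes were not worked out for that fit either. Whether the numbers pair the samples cannot be told from these values. Deviations of same-numbered libraries correlated at 0.137, 0.078 and 0.032, and those of other-numbered libraries at -0.125 to 0.046. TWT 3 correlated best with TKI 2 (0.046).

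Several small log2 fold changes changed sign; the cause was not tested. With the length trend removed, and with the block added to it, Cox6b1 was at -0.067 and -0.062, Cox7b at -0.067 and -0.045, Cyct at -0.032 and -0.027, Ndufa7 at -0.17 and -0.17, Atp5b at -0.015 and -0.014, Atp5g1 at -0.059 and -0.060 and Atp5g3 at -0.12 and -0.12. Over the fits without 1 library Cox7b ran from -0.11 to 0.24, Cox8c from -0.14 to 0.010, Cox8a from -0.11 to 0.040, Cycs from -0.017 to 0.089, Ndufa7 from -0.012 to 0.073, Atp5b from -0.0011 to 0.031 and Atp5g3 from -0.029 to 0.058.

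The member share differed by 0.0136 percentage points of counts between genotypes and by 0.0196 of summed FPKM, where the libraries overlapped. The Cox8c share of its pair, -0.555 points, turned to 0.904 without TKI 2 and 1.45 without TWT 1, the fits without 1 library running from -1.97 to 1.45. Noncoding transcripts of members called numbered 3 by DESeq2, 4 with no filter on low counts and 0 with the block. Over all transcripts tested these fits called 1.18%, 0.565% and 0.0215%. Among the values of named members, 13 passed the threshold under an alternative where they had not before, and 16 no longer passed it.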

Other observations

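Genes that feed the chain or carry its ATP were tested as a list of 17, and none was called by edgeR, DESeq2 or limma. At an unadjusted p under 0.05 there was 1 higher and 0 lower, where 7.83% and 5.09% of all genes reached it. Of the 17, 9 lay above 0, with a median of 0.00. Pdha2, the testis form of the pyruvate dehydrogenase alpha subunit, had the highest value, 0.18 ± 0.06 (SE; adjusted p = 0.26), and its libraries did not overlap. Its somatic partner Pdha1 was at 0.08 ± 0.15. Ldhc, the testis lactate dehydrogenase, was at -0.14 ± 0.07 (adjusted p = 0.492). The adenine nucleotide carriers, which exchange ATP for ADP, were at 0.01 ± 0.09 (Slc25a4), -0.06 ± 0.09 (Slc25a5) and -0.12 ± 0.07 for Slc25a31, the germ-cell form, with overlapping libraries in each.

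Of the 7391 circular RNAs listed, 1 came from a member, Ndufa10 (chr1:92452011-92470985), with 3 counts in TKI 1 and 0 in the other 5 libraries.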
